A study of Homo sapiens with 10 samples.

Results

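Expression of 9 interferon response genes, IFIT1, IFIT2, IFIT3, ISG15, IFI6, MX1, OAS1, IRF1 and IRF9, was described in K562 cells treated with inhibitors of the CREBBP/EP300 bromodomains. They were found by their symbols, and each matched 1 of the 23284 genes of the table. Levels are in FPKM (fragments relative to transcript length and to the mapped reads of the library). Of the 9, the 6 that averaged 0.5 FPKM or more across the 10 samples (IFIT2, IFIT3, ISG15, IFI6, IRF1 and IRF9) entered the test, together with 12788 genes in all, and IFIT1, MX1 and OAS1 lay under that limit.

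Type I interferons bind a receptor pair on the cell surface, and the receptor-bound kinases JAK1 and TYK2 then phosphorylate STAT proteins. STAT2 and IRF9 are parts of the ISGF3 complex, which binds interferon-stimulated response elements (ISRE) in the promoters of genes such as the IFIT family, ISG15, IFI6, MX1 and OAS1. The response to interferon gamma runs through gamma-activated sites (GAS), and IRF1 is one of its best known targets. CREBBP and EP300 are histone acetyltransferases that act as coactivators for many transcription factors, among them the STAT proteins.

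K562 is an established human chronic myelogenous leukemia cell line. The labels name no added interferon. Cells were treated for 48 h with the vehicle DMSO, with CBP30 at 2 or 5 µM, or with I-CBP112 at 2 or 5 µM. Both compounds inhibit the CREBBP/EP300 bromodomains. Each of the 5 conditions had 2 samples, which the labels call biological replicates, with no information on whether same-numbered samples were handled together. Read counts were not part of the table, so the depth of the libraries is unknown, and 2 samples per condition limit the precision of every value.

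Before the interferon response genes are described, 1 library needs mention. In replicate 1 of 2 µM CBP30 the deviation of a gene from its mean over all samples fell with transcript length (Spearman rho across 12130 genes of −0.535), which was not so in replicate 2 (−0.045), and both samples of 5 µM CBP30 deviated the other way (rho of 0.309 and 0.307). Replicate 1 of 2 µM I-CBP112 had a rho of 0.205, against −0.011 in replicate 2. Genes share a library here, and rho is given without a p. IFI6 and ISG15 have the shortest transcripts of the 9 genes (longest annotated transcript of 911 and 787 bases, against 3703 to 7546 for the other 7). Their values are therefore given below also without replicate 1 of 2 µM CBP30 and with the length trend removed. All 12 erythroid and leukemia markers listed for K562 were detected. Under 5 µM CBP30, 11 of them were called lower and 1 higher, and their summed level was 668 to 691 FPKM, against 2069 to 2129 FPKM in the DMSO samples. Of 17 markers of other cell types, 3 (CD2, MS4A1 and KRT5) were listed at 0 in every sample, 8 were tested, and 4 were called higher and 2 lower with 5 µM CBP30. Their summed level was 126 to 129 FPKM with DMSO and 112 to 119 FPKM with that treatment, most of it from LYZ, EPCAM and CD3D. The part of these markers in the values of the interferon response genes was not tested. In bulk RNA, fewer cells that express a gene and less of its RNA per cell cannot be told apart.

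The promoters of the 9 genes were looked up in RefSeq (GRCh38.p14), as windows of 250 bases before to 50 bases after a transcription start. Windows were found for 8 genes, 11 windows in all, and IFIT2 had none. Both strands were searched for the ISRE core GAAANNGAA and for the GAS motif TTCNNNGAA. Other spacings of the ISRE core were not searched. The OAS1 window, for example, holds gaaacgaaa, which this pattern does not match. Of 35116 windows of the same length, 8.11% held an ISRE core and 0.701% held 2 or more matches. Among the interferon response genes, 5 (IFIT1, IFIT3, ISG15, IFI6 and MX1) held an ISRE core, and each of these 5 had a window with at least 2 matches. A GAS match, present in 7.66% of all windows, was found for MX1, OAS1, IRF1 and IRF9. Any relation of either motif to the changes with treatment was not tested. The 250 bases upstream of the start are shown for 4 genes with at least 2 ISRE cores upstream. Each is written 5′ to 3′ along the gene, and capitals mark the ISRE core on either strand, read as TTCNNTTTC where the core lies on the other strand.
IFI6 (chr1:27672193-27672442, minus strand): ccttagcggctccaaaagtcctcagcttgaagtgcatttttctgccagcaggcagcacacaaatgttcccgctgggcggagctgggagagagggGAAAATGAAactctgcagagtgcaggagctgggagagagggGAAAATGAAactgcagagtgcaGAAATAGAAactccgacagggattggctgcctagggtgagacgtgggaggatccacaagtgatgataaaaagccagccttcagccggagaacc
ISG15 (chr1:1013247-1013496, plus strand): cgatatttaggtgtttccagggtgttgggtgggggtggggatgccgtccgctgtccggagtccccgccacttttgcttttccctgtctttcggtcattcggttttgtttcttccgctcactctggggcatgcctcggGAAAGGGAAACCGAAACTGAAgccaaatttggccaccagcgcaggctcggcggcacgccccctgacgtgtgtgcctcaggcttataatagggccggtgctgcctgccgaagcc
IFIT1 (chr10:89392373-89392622, plus strand): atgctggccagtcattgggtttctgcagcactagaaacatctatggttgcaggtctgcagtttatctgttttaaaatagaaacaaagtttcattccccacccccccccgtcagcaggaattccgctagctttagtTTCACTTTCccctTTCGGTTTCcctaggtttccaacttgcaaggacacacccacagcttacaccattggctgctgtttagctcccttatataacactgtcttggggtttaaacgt
IFIT3, first start (chr10:89327747-89327996, plus strand): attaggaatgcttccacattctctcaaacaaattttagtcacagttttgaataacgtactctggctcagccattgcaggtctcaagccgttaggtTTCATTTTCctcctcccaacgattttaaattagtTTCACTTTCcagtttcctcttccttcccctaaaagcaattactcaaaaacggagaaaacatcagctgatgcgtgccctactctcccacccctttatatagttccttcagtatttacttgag
In IFI6 the 3 cores begin 156, 115 and 93 bases before the start and do not overlap. In ISG15 the 3 matches overlap and form 1 run that begins 113 bases before the start. IFIT1 holds 2 cores (115 and 102 bases before the start) and the first start of IFIT3 also holds 2 (155 and 121 bases before), while its second start holds 3. A match describes the letters only, and binding was not measured in these samples.

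With DMSO, ISG15 had the highest level of the 9 genes (23.9 ± 0.511 FPKM, SD, n = 2), and IRF1 followed at 5.01 ± 0.0595. IFIT3 (3.32 ± 0.394), IRF9 (2.78 ± 0.465) and IFI6 (2.57 ± 0.0554) came next, and the DMSO samples of IRF9 overlapped those of IFIT3 and of IFI6. IFIT2 (1.13 ± 0.0200) and IFIT1 (0.470 ± 0.0284) were low, and MX1 and OAS1 were listed at 0 in both samples.

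With 5 µM CBP30, 3 of the 6 genes tested were called at an adjusted p under 0.05, against 46.6% of all genes tested, so that a call was about as frequent among them as among genes at large. IFI6 rose to 3.84 times its DMSO mean, IFIT2 fell to 48.3% of it and IFIT3 to 74.5%. The share of genes called higher was 21.2% overall and that of genes called lower was 25.4%. The median log2 fold change of the 6 genes was −0.07, beside −0.01 for all genes tested, with 3 genes above 0 and 3 below. All p-values of genes come from limma on log2(FPKM + 1), adjusted by Benjamini-Hochberg over the 12788 genes, and log2 fold changes on this scale understate the change of genes with low levels.

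IFI6 encodes a small mitochondrial protein with a role against apoptosis. Its level was 2.61 and 2.53 FPKM in the DMSO samples, 13.2 and 7.01 with 2 µM CBP30, 10.3 and 9.38 with 5 µM CBP30, 4.04 and 5.18 under 2 µM I-CBP112, and 5.48 and 7.44 under 5 µM I-CBP112. Every treated sample was above both DMSO samples, and both replicates of CBP30 at 5 µM were above every I-CBP112 sample. For a single treatment, both samples lay above both DMSO samples for 25% to 39.5% of all genes tested. The share over all 4 treatments, which use the same DMSO samples, was not computed. The log2 fold change of IFI6 was 1.60 (SE 0.258, adjusted p = 0.0022) with 5 µM CBP30 and 1.58 (adjusted p = 0.0047) with 2 µM CBP30. With 5 µM I-CBP112 it was 1.05 (adjusted p = 0.0571) and with 2 µM 0.65 (adjusted p = 0.328), neither of which passed the test. At 2 µM CBP30 the replicates stood apart, and the log2 fold change was 1.17 without replicate 1, the library with the length trend, and 1.99 without replicate 2. With 1 sample left out, its condition holds a single library, which is taken to vary like the other conditions. With the length trend removed it was 1.39 (adjusted p = 0.00128), and in a fit of the 2 groups alone the call was lost (adjusted p = 0.0945). The change with 5 µM I-CBP112 passed the test without replicate 1 or without replicate 2 of 2 µM CBP30 (adjusted p = 0.0063 for both), and with the length trend removed (adjusted p = 0.0119).

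ISG15 is a ubiquitin-like protein that is attached to other proteins in interferon-treated cells. It was measured at 24.2 and 23.5 FPKM with DMSO, 32.9 and 18.1 with 2 µM CBP30, 16.2 and 13.5 with 5 µM CBP30, 22.6 and 20.9 under 2 µM I-CBP112, and 24.7 and 21.9 under 5 µM I-CBP112. Both samples of 5 µM CBP30 were below every other sample. For 42.6% of all genes tested, both samples of this treatment lay below both DMSO samples. The ISG15 values of 2 µM CBP30 lay on either side of DMSO, and those of I-CBP112 lay near DMSO. The mean with 5 µM CBP30 was 62.1% of that with DMSO, a log2 fold change of −0.66 (SE 0.237, adjusted p = 0.0562), which did not pass the test. At 2 µM CBP30 the log2 fold change of 0.03 (adjusted p = 0.931) turned to −0.38 without replicate 1 (adjusted p = 0.0479) and to −0.16 with the length trend removed, and was 0.45 without replicate 2 (adjusted p = 0.0187). Each of these calls sets 1 library against DMSO with the spread of the other conditions, and they go in opposite directions. The difference at 5 µM CBP30 passed the test without replicate 1 or without replicate 2 of 2 µM CBP30 (adjusted p = 0.00145 for both), in a fit of the 2 groups alone (adjusted p = 0.00892) and with the length trend removed (−0.52, adjusted p = 0.0256). With I-CBP112 the log2 fold change was −0.13 (95% interval −0.69 to 0.43) at 2 µM and −0.04 (−0.59 to 0.52) at 5 µM.

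IFIT1, IFIT2 and IFIT3 are neighbouring genes on chromosome 10 whose products bind foreign RNA or act with each other in doing so. In GRCh37, the build of the deposited values, IFIT2 lies at 10:91043451-91069028, IFIT3 at 10:91087064-91137230 and IFIT1 at 10:91152303-91166244, all on the plus strand. They overlap LIPA, which is annotated on the opposite strand. The libraries were made with a stranded kit, but whether the strand was used in counting is not given in the sources used here.

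IFIT2 stood at 1.15 and 1.12 FPKM with DMSO, 0.456 and 0.431 with 2 µM CBP30, 0.524 and 0.570 with 5 µM CBP30, 0.576 and 0.693 under 2 µM I-CBP112, and 0.499 and 0.577 under 5 µM I-CBP112. Every treated sample was below both DMSO samples. For a single treatment, both samples lay below both DMSO samples for 28.3% to 42.6% of all genes tested. The mean of IFIT2 fell to 39.2% of DMSO with 2 µM CBP30 (log2 fold change −0.56, SE 0.0778, adjusted p = 0.0024) and to 48.3% with 5 µM CBP30 (−0.46, adjusted p = 0.0026). It fell to 47.5% with 5 µM I-CBP112 (−0.47, adjusted p = 0.0156), and was 56.1% of DMSO with 2 µM I-CBP112 (−0.38, adjusted p = 0.0713), where it did not pass the test. Without replicate 1 or 2 of 2 µM CBP30 the latter passed (adjusted p = 0.0290 and 0.0282), as it did with the length trend removed (adjusted p = 0.0433). The call with 5 µM I-CBP112 was lost without DMSO replicate 1 or 2 (adjusted p = 0.0796 and 0.0681) and without replicate 1 or 2 of that treatment (adjusted p = 0.0925 and 0.0635). The mean of IFIT2 over the 8 treated samples was 0.541 FPKM, and both samples of 2 µM CBP30 and replicate 1 of 5 µM I-CBP112 lay under the limit of 0.5 FPKM.

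IFIT3 reached 3.60 and 3.04 FPKM with DMSO, 2.17 and 2.02 with 2 µM CBP30, 2.34 and 2.60 with 5 µM CBP30, 1.77 and 2.24 under 2 µM I-CBP112, and 2.24 and 2.31 under 5 µM I-CBP112. Again no treated sample reached the lower DMSO sample. The shares of all genes below DMSO in single treatments are given with IFIT1. IFIT3 fell to 63.2% of the DMSO mean with 2 µM CBP30 (log2 fold change −0.48, SE 0.102, adjusted p = 0.0128) and to 74.5% with 5 µM CBP30 (−0.31, adjusted p = 0.0395). In cells given I-CBP112 its mean was 60.5% of DMSO at 2 µM (−0.52, adjusted p = 0.0630) and 68.6% at 5 µM (−0.40, adjusted p = 0.0648), and neither passed the test. The call at 5 µM CBP30 was lost in 8 of 18 alternatives, with adjusted p of 0.200 without DMSO replicate 1, 0.176 and 0.0771 without replicate 1 or 2 of 5 µM CBP30, and 0.0636 and 0.0637 without replicate 1 or 2 of 5 µM I-CBP112. At 2 µM CBP30 it was lost without DMSO replicate 1 (adjusted p = 0.0772) and in a fit of the 2 groups alone (adjusted p = 0.107). Without replicate 1 or 2 of 2 µM CBP30, IFIT3 passed the test with I-CBP112 at both concentrations (adjusted p = 0.0333 to 0.0381).

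IFIT1, at 0.450 and 0.490 FPKM with DMSO, was the lowest of the 3. Its values were 0.205 and 0.260 FPKM under 2 µM CBP30, 0.303 and 0.252 with 5 µM CBP30, 0.331 and 0.289 under 2 µM I-CBP112, and 0.153 and 0.267 under 5 µM I-CBP112. Every treated sample was below both DMSO samples, and the treated means were 44.6% to 65.9% of the DMSO mean. IFIT1 averaged less than 0.5 FPKM and was not tested. In a fit without a limit on low levels, its log2 fold change was −0.26 with 2 µM CBP30 (adjusted p = 0.0164), −0.20 with 5 µM CBP30 (adjusted p = 0.0228), −0.28 at 5 µM I-CBP112 (adjusted p = 0.0314) and, for the lower concentration of that compound, −0.17 (adjusted p = 0.242). Both treated samples were below both DMSO samples for 30.5% of all genes tested with 2 µM CBP30, 42.6% with 5 µM CBP30, 28.3% with 2 µM I-CBP112 and 33.7% with 5 µM I-CBP112.

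MX1, a dynamin-like GTPase that restricts influenza viruses, and OAS1, which makes the oligoadenylates that activate RNase L, were at or near 0. MX1 was listed at 0 in 8 of 10 samples, with 0.0127 FPKM in replicate 1 of 2 µM CBP30 and 0.0232 in replicate 1 of 5 µM I-CBP112. OAS1 was listed at 0 in 7 of 10 samples, with 0.0278, 0.0315 and 0.0322 FPKM in replicate 1 of 2 µM CBP30, 5 µM CBP30 and 5 µM I-CBP112. Without counts, values this low cannot be set against a detection limit, and no fold change is given.

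The transcription factors IRF1 and IRF9 did not pass the test in any treatment. IRF1 was measured at 4.97 and 5.06 FPKM with DMSO, 6.28 and 5.42 with 2 µM CBP30, 5.83 and 5.73 with 5 µM CBP30, 5.45 and 5.70 under 2 µM I-CBP112, and 5.17 and 5.60 under 5 µM I-CBP112. All 8 treated samples were above both DMSO samples. Per treatment, both samples lay above both DMSO samples for 39.5% of genes tested with 5 µM CBP30 and 31.4% with 2 µM CBP30. The shares were 30.5% with 5 µM I-CBP112 and 25% with 2 µM I-CBP112. The share of genes with all 8 treated samples above DMSO was not computed. The log2 fold changes lay between 0.08 and 0.18 (SE 0.0740, adjusted p = 0.0951 to 0.577). IRF1 passed the test at 5 µM CBP30 without replicate 1 or without replicate 2 of 2 µM CBP30 (0.17, adjusted p = 0.0212 and 0.0211), and at 2 µM CBP30 without replicate 2 of that group (0.28, adjusted p = 0.00894), whereas without replicate 1, the library with the length trend, the value there was 0.093 (adjusted p = 0.265). Its gene overlaps the antisense gene IRF1-AS1.

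IRF9, the DNA-binding part of ISGF3, had 3.11 and 2.45 FPKM with DMSO, 3.95 and 3.24 with 2 µM CBP30, 3.91 and 3.54 with 5 µM CBP30, 2.99 and 3.46 under 2 µM I-CBP112, and 3.04 and 3.79 under 5 µM I-CBP112. Both CBP30 groups lay above DMSO, as for 39.5% of all genes tested at 5 µM and 31.4% at 2 µM. Both I-CBP112 groups overlapped DMSO. The log2 fold changes were 0.33 (95% interval 0.01 to 0.64, adjusted p = 0.0818) with 5 µM CBP30 and 0.28 (−0.03 to 0.59, adjusted p = 0.143) with 2 µM CBP30, and none passed the test. The latter was 0.17 without replicate 1 of 2 µM CBP30 and 0.39 without replicate 2.

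**Figure D1:**
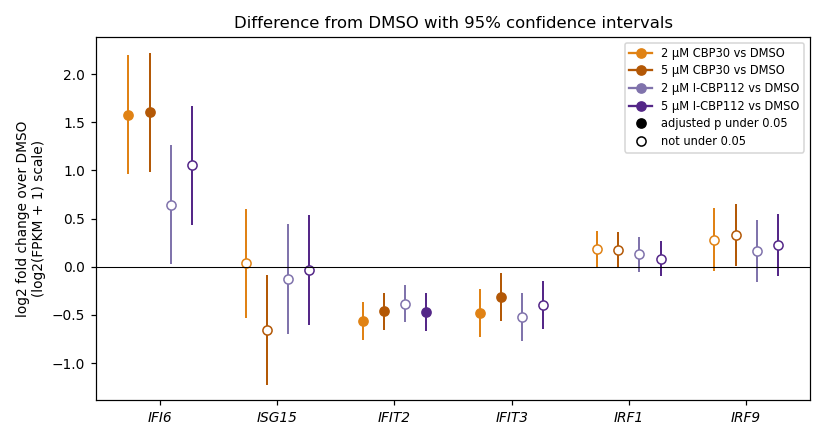
Log2 fold change over DMSO on the log2(FPKM + 1) scale for the 6 interferon response genes tested, with 95% confidence intervals from limma, for each of the 4 treatments. Filled points had an adjusted p under 0.05, which are IFI6 with both CBP30 concentrations, IFIT2 with all treatments but 2 µM I-CBP112, and IFIT3 with both CBP30 concentrations.

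The other treatments were read in the same way. At 2 µM CBP30, 3 of the 6 genes were called (1 higher and 2 lower), against 32.1% of all genes, or 15.9% higher and 16.3% lower. At 5 µM I-CBP112, 1 gene, IFIT2, was called lower, against 7.12% of all genes, or 3.84% higher and 3.28% lower. At 2 µM I-CBP112, limma called 0 of 6, against 1.6% of all genes, and 3 of the 6 had an unadjusted p under 0.05. Replicates 1 and 2 of 2 µM CBP30 both bear on these counts through the shared estimate of the spread. Without replicate 1 or without replicate 2, 5 of the 6 genes were called with 5 µM CBP30, against 62.9% of all genes in the same fits. With 5 µM I-CBP112, 3 were called in either fit, against 23% of all genes, and 2 under 2 µM I-CBP112, against 9.07% without replicate 1 and 9.06% without replicate 2. With 2 µM CBP30 itself, 4 were called without replicate 1, against 37.1% of all genes, and 5 without replicate 2, against 56.8%. The share of all genes called was thus also higher in these fits.

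Between the concentrations of CBP30, limma called 0 of the 6 genes, against 38.9% of all genes, and 1, ISG15, had an unadjusted p under 0.05. ISG15 was lower at 5 µM than at 2 µM by a log2 difference of −0.69 (95% interval −1.25 to −0.13, adjusted p = 0.0546), and by −1.10 (adjusted p = 0.000458) without replicate 2 of 2 µM CBP30. Without replicate 1, the library with the length trend, the difference was −0.28 (adjusted p = 0.115), and with the length trend removed −0.36 (adjusted p = 0.106). IFI6 differed by 0.03 (−0.58 to 0.63), which was 0.44 without replicate 1 of 2 µM CBP30 and −0.38 without replicate 2. IFIT2 and IFIT3 differed by 0.10 (−0.08 to 0.28) and 0.16 (−0.07 to 0.40). Between the concentrations of I-CBP112, 0 of 6 were called, against 0.0626% of all genes, and 0 had an unadjusted p under 0.05. The largest difference there was that of IFI6, 0.41 higher at 5 µM (−0.20 to 1.01).

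The compounds were compared with each other at both matched concentrations, 2 pairs of conditions for each of the 6 genes, with p adjusted over all genes. At 5 µM, 0 of 6 genes were called, against 31.4% of all genes, and ISG15 alone had an unadjusted p under 0.05. ISG15 was lower with CBP30 than with I-CBP112 by −0.62 (95% interval −1.18 to −0.06, adjusted p = 0.0877) and IFI6 was higher by 0.55 (−0.06 to 1.16, adjusted p = 0.147). Both passed the test without replicate 1 or without replicate 2 of 2 µM CBP30 (adjusted p = 0.00274 and 0.00275 for ISG15, 0.0223 for IFI6), where 52.2% and 52.1% of all genes were called, and with the length trend removed (adjusted p = 0.0493 and 0.0199). At 2 µM, 0 of 6 were called, against 15.6% of all genes, and IFI6 alone had an unadjusted p under 0.05. IFI6 was higher with CBP30 by 0.93 (0.32 to 1.54, adjusted p = 0.0516), and by 1.34 (adjusted p = 0.00179) without replicate 2 of 2 µM CBP30. Without replicate 1 the difference was 0.52 (adjusted p = 0.101), and with the length trend removed 0.72 (adjusted p = 0.0304). ISG15 differed at 2 µM by 0.16 (−0.40 to 0.72), which became −0.25 without replicate 1 of 2 µM CBP30 and 0.57 (adjusted p = 0.00800) without replicate 2.

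For the IFIT genes no difference between the compounds passed the test. For IFIT2 the difference of CBP30 from I-CBP112 was 0.01 (−0.17 to 0.19) at 5 µM and −0.18 (−0.36 to 0.00) at 2 µM. For IFIT3 it was 0.08 (−0.16 to 0.32) at 5 µM and 0.05 (−0.19 to 0.29) at 2 µM. IRF1 and IRF9 differed by 0.06 to 0.12 at the 2 concentrations. The difference between the compounds in their change with concentration passed the test for none of the 6 genes (0 called by limma, against 4.94% of all genes, and 0 with an unadjusted p under 0.05). The largest was that of ISG15, −0.78 (−1.57 to 0.007, unadjusted p = 0.0515, adjusted p = 0.146), and the widest interval was that of IFI6, −1.24 to 0.48. Without replicate 2 of 2 µM CBP30, 2 of the 6 were called in this comparison, against 53.7% of all genes in that fit.

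The genes of the pathway upstream and around the 9 were described from lists of known members. Among 10 interferon genes, 8 were listed at 0 in every sample and none reached the limit for testing. Of 5 receptor genes tested, 2 rose and 1 fell with 5 µM CBP30, against 21.2% and 25.4% of all genes. IFNAR2, a chain of the type I receptor, rose by 0.24 (adjusted p = 0.0192), and this was lost with the length trend removed (0.12, adjusted p = 0.398) and without replicate 1 or 2 of DMSO (adjusted p = 0.0914 and 0.0710) or replicate 1 of 5 µM CBP30 (adjusted p = 0.121). IL10RB, a chain of the type III receptor, rose from a mean of 13.0 to 18.3 FPKM (0.47, adjusted p = 0.00892), which was lost without DMSO replicate 1 (adjusted p = 0.0634) or replicate 2 of 5 µM CBP30 (adjusted p = 0.0639), and IFNGR1, the ligand-binding chain of the type II receptor, fell from 27.9 to 20.9 (−0.40, adjusted p = 0.00135). IFNAR1, the other type I chain, had a log2 fold change of 0.01 (adjusted p = 0.916).

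Among the signalling genes (JAK kinases, STAT proteins and interferon regulatory factors), 6 of 10 tested rose and 1 fell with 5 µM CBP30, against 21.2% and 25.4% of all genes. STAT2 rose from 10.6 and 10.8 to 16.2 and 15.5 FPKM (log2 fold change 0.53, adjusted p = 0.000623). Its samples of 5 µM CBP30 were above all others, and it was not called in the other 3 treatments. Both samples of 5 µM CBP30 were above both DMSO samples for 39.5% of all genes tested. JAK2, the kinase of the interferon gamma and many cytokine receptors, fell from 5.78 and 6.79 FPKM to 3.31 and 3.28 (−0.76, adjusted p = 0.00135), and to 3.25 and 4.15 with 2 µM CBP30 (−0.64, adjusted p = 0.00581), though not in a fit of the 2 groups alone (adjusted p = 0.118). IRF7 rose from a mean of 1.49 to 2.99 FPKM with 5 µM CBP30 (0.68, adjusted p = 0.0269), but with quantile normalization the adjusted p was 0.0577, and without replicate 1 or 2 of DMSO or of 5 µM CBP30 it was 0.0733 to 0.131. TYK2 rose by 0.20 (adjusted p = 0.0306), which was lost without DMSO replicate 2 (adjusted p = 0.166) and without replicate 1 or 2 of 5 µM CBP30 (adjusted p = 0.150 and 0.0745) or of either I-CBP112 group (adjusted p = 0.0526 to 0.0546). JAK1 (0.23, adjusted p = 0.149) and IRF3 (−0.08, adjusted p = 0.664) did not pass the test with 5 µM CBP30. IRF3 was called higher with 2 µM CBP30 (0.44, adjusted p = 0.0464), a call lost in 12 of 19 alternatives. With I-CBP112, limma called 0 of these 10 genes at either concentration, against 7.12% of all genes at 5 µM and 1.6% at 2 µM, and 2 of them had an unadjusted p under 0.05 at each.

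Among sensors of nucleic acids and their adaptors, 3 of 8 tested rose and 2 fell with 5 µM CBP30, against 21.2% and 25.4% of all genes. IFI16, a sensor of DNA, stood at 1.99 FPKM in both DMSO samples, 5.74 and 5.79 with 2 µM CBP30, and 13.0 and 13.2 at 5 µM, and was higher at 5 than at 2 µM CBP30 by 1.06 (adjusted p = 0.000447). Its log2 fold change was 2.24 at 5 µM, 1.18 at 2 µM and 0.62 with 5 µM I-CBP112 (adjusted p = 0.00475). TMEM173, which encodes the adaptor STING, fell from 32.5 and 34.2 to 19.6 and 18.2 FPKM under 5 µM CBP30 (−0.79, adjusted p = 0.000191) and had log2 fold changes of −0.11 to 0.03 in the other treatments. IKBKE, a kinase that activates IRF3 and IRF7, rose from a mean of 3.20 to 5.47 FPKM (0.62, adjusted p = 0.000252).

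The list of other interferon-stimulated genes held 63 genes, of which 43 were tested. With 5 µM CBP30, 13 rose and 11 fell, against 21.2% and 25.4% of all genes, with a median log2 fold change of 0.15. With 2 µM CBP30, 13 were called higher and 7 lower, against 15.9% and 16.3% of all genes. With 5 µM I-CBP112, 7 were higher and 1 lower, against 3.84% and 3.28%. For 2 µM I-CBP112, limma called 2 higher and 0 lower, against 1.6% of all genes called. The share of all genes called in all 4 treatments was not computed. RSAD2, which encodes the antiviral enzyme viperin, and UBE2L6, the ISG15-conjugating enzyme, were called higher in all 4 treatments (UBE2L6 was named after its values were seen). RSAD2 was measured at 5.64 and 5.89 FPKM with DMSO, 11.0 and 11.4 with 2 µM CBP30, 12.9 and 12.8 with 5 µM CBP30, 8.17 and 9.15 under 2 µM I-CBP112, and 11.8 and 11.1 under 5 µM I-CBP112. Every treated sample was above DMSO, and the shares of all genes for single treatments are given with IFI6. The log2 fold changes of RSAD2 were 0.85, 1.04, 0.51 and 0.88. The call with 2 µM I-CBP112 (adjusted p = 0.0166) was lost without replicate 1 or 2 of DMSO, 5 µM CBP30 or that treatment (adjusted p = 0.0598 to 0.145) and in a fit of the 2 groups alone (adjusted p = 0.0976). GBP2, an interferon-induced GTPase, rose from a mean of 0.491 to 2.39 FPKM with 5 µM CBP30 (1.18), and IFI27L2 from 1.99 to 5.47 FPKM (1.12). The call of IFI27L2 was lost without DMSO replicate 2 (adjusted p = 0.0599) or replicate 2 of 5 µM CBP30 (adjusted p = 0.0561). Among the 11 that fell with 5 µM CBP30 were LGALS9 (−0.86), TRIM14 (−0.81) and IFITM1 (−0.73), named after their values were seen.

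Of the feedback inhibitors, 3 of 10 tested rose and 2 fell with 5 µM CBP30, against 21.2% and 25.4% of all genes. SOCS1, which blocks the JAK kinases, stood at 31.8 and 32.9 FPKM with DMSO, 175 and 112 with 2 µM CBP30, 117 and 115 with 5 µM CBP30, 53.4 and 52.0 under 2 µM I-CBP112, and 66.2 and 66.1 under 5 µM I-CBP112. All treated samples were above DMSO and every CBP30 sample was above every I-CBP112 sample, as for IFI6 in all CBP30 samples but replicate 2 at 2 µM. The shares of all genes above DMSO in single treatments are those given for IFI6. The log2 fold change of SOCS1 was 1.81 (adjusted p = 0.000224) with 5 µM CBP30, 2.08 with 2 µM CBP30, 1.01 (adjusted p = 0.0181) with 5 µM I-CBP112 and 0.69 (adjusted p = 0.131) with 2 µM I-CBP112. The call with 5 µM I-CBP112 was lost without replicate 1 or 2 of DMSO or of that treatment (adjusted p = 0.106 to 0.125), and that with 2 µM CBP30 in a fit of the 2 groups alone (adjusted p = 0.0518). USP18, which removes ISG15 from proteins and dampens the receptor, went from a mean of 1.05 to 0.720 FPKM (−0.25, adjusted p = 0.0943) and did not pass the test.

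Of the antigen presentation genes, 6 of 13 tested rose and 2 fell with 5 µM CBP30, against 21.2% and 25.4% of all genes. TAP2, a subunit of the peptide transporter, fell from 11.2 and 11.0 to 6.30 and 6.62 FPKM (−0.70). HLA-C rose from 3.75 and 3.82 to 6.53 and 6.56 FPKM (0.66), and HLA-B from 1.93 and 2.06 to 3.49 and 4.03 FPKM (0.67, adjusted p = 0.0257). HLA class I genes are near-identical over long stretches, so reads may have been split between them, and the call for HLA-B was lost with quantile normalization (adjusted p = 0.0584) and without replicate 1 or 2 of DMSO or of 5 µM CBP30 (adjusted p = 0.0686 to 0.131). The targets of the compounds, CREBBP (6.45 FPKM with DMSO and 8.88 with 5 µM CBP30, adjusted p = 0.0826) and EP300 (7.87 and 10.5, adjusted p = 0.216), did not pass the test.

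**Figure D2:**
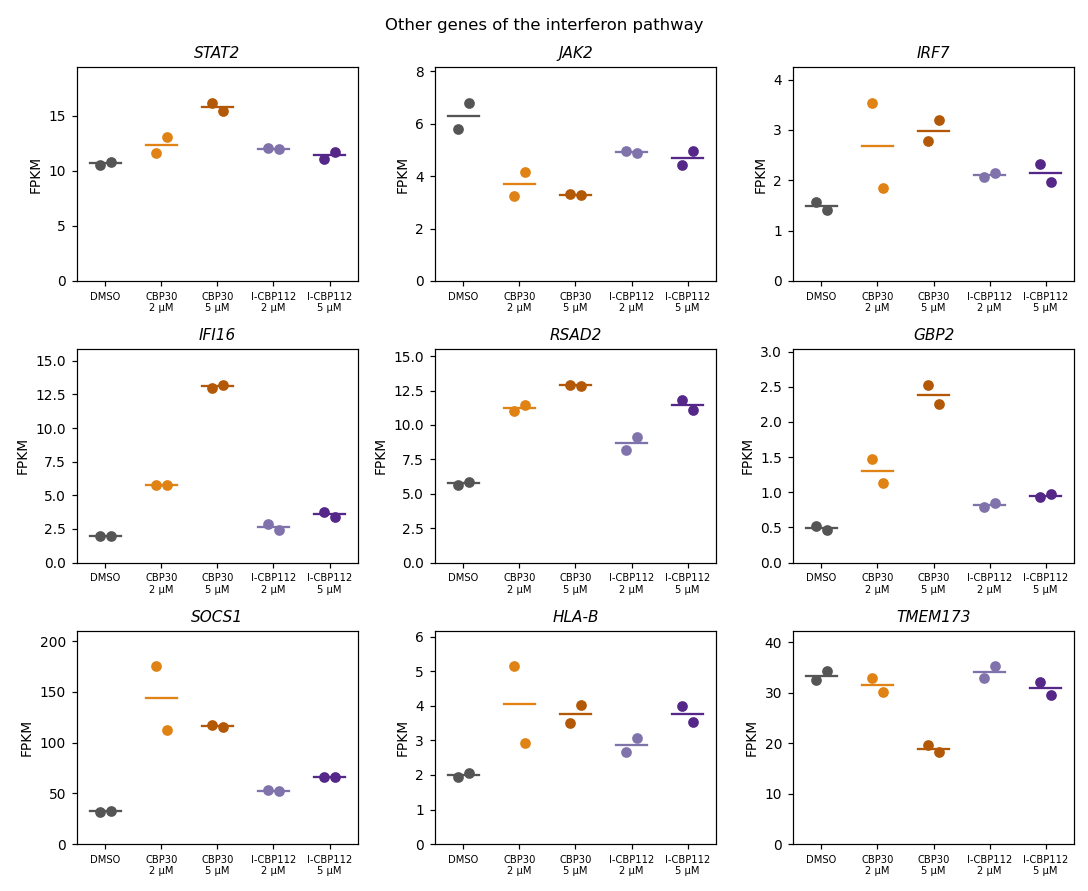
FPKM of 9 other genes of the interferon pathway in each sample (points, 2 per condition) with the mean of the condition (horizontal lines), each on its own linear axis from 0. STAT2, IFI16 and GBP2 were highest with 5 µM CBP30, SOCS1 was higher in every CBP30 sample than in any other sample, and TMEM173 was lowest with 5 µM CBP30.

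The 3 genes called in at least 2 treatments were matched to the genes with the most similar pattern, by the mean absolute difference over the 4 log2 fold changes against DMSO, among 8994 genes averaging 5 FPKM or more. The 4 comparisons share the DMSO samples, and the match is a description. The genes closest to IFI6 were HIST1H2BK (0.0897), WDR54 (0.110) and HIST1H2AE (0.112). Those closest to IFIT2 were CNST (0.0614), C4orf32 (0.0632) and IKZF1 (0.0654), and those closest to IFIT3 were MALT1 (0.0930), TMEM64 (0.0948) and MINK1 (0.104). The matched values were taken from log2(FPKM + 1), where the added 1 weighs more in genes with little RNA. IFIT2 averaged 0.659 FPKM and CNST 18.5 FPKM. With 5 µM CBP30, IFIT2 fell to 48.3% of DMSO at −0.46, and the −0.50 of CNST stands for a smaller relative fall. The matches, that of IFIT2 most of all, are therefore not ones of equal relative change.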

How the data were processed

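Polyadenylated RNA from 10 K562 samples (5 conditions, 2 samples each) was made into stranded libraries and sequenced as single reads of 50 bases. The values are in FPKM, and the authors deposited 1 column of them for each sample, made on GRCh37 (hg19) with the Nextpresso pipeline. The submitters' processing notes name TopHat2 2.0.10, Bowtie 1.0.0, SAMtools 0.1.19, Cufflinks 2.2.1, Cuffnorm and FastQC. The gene annotation is not given in the sources used here. FPKM is scaled by library, so a change in a few abundant genes shifts the others. The columns summed to between 547504 and 689095 FPKM, and the median over tested genes was 11.1 to 11.6.

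Genes averaging 0.5 FPKM or more were fitted as log2(FPKM + 1) with limma 3.58.1 (R 4.3.3, eBayes with a trend), all 5 groups in 1 fit with 5 residual degrees of freedom and 2.15 prior ones. Genes with an adjusted p under 0.05 were called, and 95% intervals are limma's and not adjusted. The fit was also run on simulated data with independent noise and no trend with length. That run does not bear on the library with the length trend. The members and the lists of pathway and marker genes were chosen with earlier results of these data known. Genes named beside the 9 are fixed ones by role and up to 3 from each list with the largest change at 5 µM CBP30 among those called there whose higher group averaged 1 FPKM or more. Transcript lengths and GRCh37 positions came from GENCODE, by symbol for 19500 genes and by synonym for 1909. Results were recomputed with a pseudocount of 0.1, without the filter, with a filter at 5 FPKM, with median centring, with quantile normalization, with no trend, with only the groups compared, with a replicate block, with removal of each sample's trend with length, and with each of the 10 samples left out in turn.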

Additional observations from a re-analysis of the deposited data

How the results depend on the processing

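Counts of the 9 genes called kept within 1.5 times their value in 137 of 171 recomputations. The count of 3 with 5 µM CBP30 became 1 with a filter at 5 FPKM, which leaves 3 of the genes, and was 2 to 5 when 1 sample was left out. With 2 µM CBP30 the count of 3 became 1 with that filter and 1 with only the groups compared, and was 2 to 5 with 1 sample left out. With 5 µM I-CBP112 the count of 1 became 2 with a pseudocount of 0.1, 2 without a filter, 2 with only the groups compared, 3 with the length trend removed and 0 with a filter at 5 FPKM, and was 0 to 3 with 1 sample left out. With 2 µM I-CBP112 the count of 0 became 1 without a filter, 1 without the trend of the variance and 2 with the length trend removed, and was 0 to 2 with 1 sample left out. Between the concentrations of CBP30 it became 1 with a filter at 5 FPKM, 1 with the replicate block and 0 to 1 with 1 sample left out. Between the compounds at 5 µM it became 1 with only the groups compared, 2 with the length trend removed and 0 to 2 with 1 sample left out, and at 2 µM 1 with a pseudocount of 0.1, 1 with quantile normalization, 1 with the length trend removed and 0 to 2 with 1 sample left out. The count for the change with concentration was 0 to 2 with 1 sample left out. Where not stated, the cause was not tested.

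Fold changes of single genes kept direction and call in 1466 recomputations, lost the call in 106, gained it in 41 and reversed in 22. The reversals were of differences that had not passed the test. With the length trend removed, ISG15 with 2 µM CBP30 became −0.16, ISG15 between the compounds at 2 µM −0.051, and IRF9 between the concentrations of CBP30 −0.0014. The last was −0.013 with quantile normalization, where IFI6 was −0.0038, and IFI6 was −0.0067 with median centring. The other reversals came with 1 sample left out. ISG15 ranged from −0.38 to 0.45 with 2 µM CBP30, from −0.12 to 0.047 with 5 µM I-CBP112, and from −0.25 to 0.57 between the compounds at 2 µM. Between the concentrations of CBP30, IFI6 ranged from −0.38 to 0.44, IRF1 from −0.10 to 0.079, and IRF9 from −0.068 to 0.15. Between those of I-CBP112, IRF1 ranged from −0.092 to 0.0050 and IRF9 from −0.062 to 0.18. Between the compounds, IFIT2 ranged from −0.028 to 0.045 and IRF9 from −0.020 to 0.23 at 5 µM, and IFIT3 from −0.066 to 0.16 and IRF1 from −0.035 to 0.15 at 2 µM.

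Deviations of same-numbered samples correlated between −0.0681 and 0.0939 over all genes tested. Such a correlation cannot tell whether same-numbered samples were handled together, which the labels do not state. With the replicate number as a block, IFIT3 was lost with 5 µM CBP30 (adjusted p = 0.0582) and ISG15 gained there (adjusted p = 0.0298), and ISG15 was also called between the concentrations of CBP30 (adjusted p = 0.0340). The depth of the libraries is unknown, which limits IFIT1, MX1 and OAS1 most.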
